A study of Mus musculus with 2 samples.

Results

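The ErbB receptors and their ligands were followed across the cell types of parathyroid glands that mouse embryonic stem cells (ESCs) had formed. The 10 genes were taken by symbol: the 4 receptors Egfr, Erbb2, Erbb3 and Erbb4 and the 6 ligands Nrg1, Nrg2, Nrg4, Hbegf, Areg and Btc, of 32287 entries in the gene list of both libraries. The choice was made because Erbb4 was known from these data to be high in parathyroid cells. Levels in parathyroid cells against other cells are therefore given as a description, with no test. The glands came from adult Gcm2-/- mice on a BDF1B6 background, in which the transcription factor that directs parathyroid development is missing, complemented with ESCs carrying Pth-tdTomato. For library 1 the glands of 3 mice, 9 to 12 weeks old, were pooled, and chimerism in peripheral blood was 50 to 70%. For library 2 there were 5 mice, 6 to 13 weeks old, at 60 to 70%. Males and females were mixed in each pool, and both libraries belong to a single group, so that no gland of another genotype is compared here. Host cells remain in these chimaeras, and the cells outside the parathyroid class may come from either source.

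ErbB receptors are membrane tyrosine kinases that work in pairs after a ligand binds. Egfr is the receptor of the EGF-type ligands, Erbb3 and Erbb4 are the receptors of the neuregulins, Erbb2 binds no known ligand and serves as a partner, and Erbb3 has little kinase activity of its own. Btc and Hbegf bind both Egfr and Erbb4, Areg binds Egfr, and Nrg4 acts through Erbb4. The ligands are made as membrane proteins and are released by cutting at the cell surface. The signal runs through Ras and ERK or through PI3K and Akt, and Erbb4 can itself be cut to free a part that enters the nucleus.

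After filtering, 1242 cells of library 1 and 3312 cells of library 2 were kept, with 40003215 and 87103657 UMIs. A UMI is 1 counted molecule, and levels are given as CPM, counts scaled to 1000000 UMIs of a cell class in a library. The parathyroid class held the cells with at least 5% of their UMIs from Pth, the gene of parathyroid hormone, which were 662 and 2236 cells. Cells with under 1% Pth, 566 and 1054, were typed by standard markers, and a name ending in "like" rests on those markers. Only 14 and 22 cells lay between the limits. The parathyroid class had the other defining genes of the gland. Casr, the calcium-sensing receptor, stood at 332 ± 25.1 CPM (SD, n = 2 libraries) against a mean of 7.92 ± 1.25 in the 5 other large classes, and Gcm2 at 158 ± 1.34 against 2.84 ± 0.117. The 5 other classes were fibroblast-like (230 and 448 cells), endothelial-like (106 and 270), macrophage-like (65 and 139), dendritic-like (52 and 48) and T-cell-like cells (36 and 51, led by Cd163l1, Trdc and Il23r). The larger dendritic-like cluster (41 and 43 cells) scored 1.68 on dendritic and 1.65 on B-cell markers, had Igkc and Top2a beside Cd209a among its leading genes, and at a finer clustering (Leiden resolution 2) 13 and 26 cells were named B-cell-like. Levels in the dendritic-like class may thus include B-cell-like cells. Median depth differed between classes, from 37902 and 30579.5 UMIs per parathyroid cell to 10250 and 7589 per endothelial-like cell, so shares of cells with a UMI are also given after thinning each cell to 5000 UMIs. The intervals given with single libraries are exact 95% intervals and cover counting error only. The libraries shared 3 cell barcodes.

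Erbb4, the receptor around which the set was chosen, lies on the minus strand of chromosome 1 at chr1:68032186-69108059 (GRCm38, the GENCODE gene span), a span of 1075874 bases. The 250 bases before its RefSeq start are printed because Btc was the member whose pattern was most like that of Erbb4, beside the same stretch of Btc (chr5:91357261-91402994, minus strand) and of Areg (chr5:91139599-91148432, plus strand), which lie near each other on chromosome 5 and had different patterns. The sequences are RefSeq's on GRCm38.p6, on the strand of the gene, 5′ to 3′. Of the 10 members, 6 matched the table of promoters used. In Erbb4 and Btc the capitals mark CG pairs, and in Areg they mark 2 motifs described after them.
Erbb4, chr1:69108060-69108309: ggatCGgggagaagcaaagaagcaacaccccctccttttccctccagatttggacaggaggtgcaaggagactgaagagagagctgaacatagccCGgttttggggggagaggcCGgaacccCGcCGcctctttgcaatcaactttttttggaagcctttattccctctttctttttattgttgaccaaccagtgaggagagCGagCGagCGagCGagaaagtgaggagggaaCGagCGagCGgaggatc
Btc, chr5:91402995-91403244: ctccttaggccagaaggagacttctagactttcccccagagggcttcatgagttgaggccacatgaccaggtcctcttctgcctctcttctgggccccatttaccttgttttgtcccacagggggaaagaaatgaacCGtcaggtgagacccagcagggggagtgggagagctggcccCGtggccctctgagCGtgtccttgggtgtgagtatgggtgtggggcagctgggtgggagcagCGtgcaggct
Areg, chr5:91139349-91139598: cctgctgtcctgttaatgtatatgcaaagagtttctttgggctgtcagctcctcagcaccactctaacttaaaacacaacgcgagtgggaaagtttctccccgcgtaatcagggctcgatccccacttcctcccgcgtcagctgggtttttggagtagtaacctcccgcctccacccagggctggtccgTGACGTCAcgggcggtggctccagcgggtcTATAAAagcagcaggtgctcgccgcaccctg
The Erbb4 stretch held 12 CG pairs and the Btc stretch 4, beside a median of 6 over 32851 RefSeq promoters (quartiles 2 and 16). Searched on both strands, the GCM motif ATGCGGGT was in none of the 6 stretches and in 0.207% of all promoters. GATA motifs (AGATAA, its variant AGATAG, the form TGATAA and the form TGATAG, found in 26.5% of all promoters) were in the Nrg4 stretch alone among the 6. The Areg stretch held the cyclic AMP response element TGACGTCA, which reads the same on both strands, ending 53 bases before the start. That motif was in 1.55% of all promoters. It also held the TATA box motif TATAAA, found in 12.4% of all promoters, ending 25 bases before the start. These matches describe letters in these windows.

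Erbb4 was detected in nearly every parathyroid cell and was low in the other named classes. Its level in the parathyroid class was 360 CPM in library 1 (10967 UMIs) and 338 CPM in library 2 (24146 UMIs), a mean of 349 ± 15.5 CPM. The mean of the 5 other classes was 1.21 CPM in library 1 and 2.93 in library 2. The parathyroid mean was 168 times the mean of the others, with a ratio of 297 in library 1 and 115 in library 2. Of all Erbb4 UMIs in kept cells, 98.7% in library 1 and 99.3% in library 2 were in the parathyroid class. The fibroblast-like class had 6 and 23 UMIs, the endothelial-like class 1 and 7, the macrophage-like class 2 and 10, and the dendritic-like class 2 and 4. The T-cell-like class had 0 in both libraries, which allows up to 6.94 CPM in library 1 and 6.60 in library 2. No library of any other named class overlapped the parathyroid libraries.

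The few Erbb4 UMIs outside the parathyroid class were set beside Pth UMIs in the same cells, since Pth RNA was present at a low level in every class. In the fibroblast-like cells the ratio of Erbb4 to Pth was 0.408 times that of the parathyroid class in library 1 (interval 0.150 to 0.888) and 0.955 times in library 2 (0.605 to 1.43). In the macrophage-like cells of library 2 it was 1.10 times (0.530 to 2.03), and in the endothelial-like cells of library 2 it was 0.781 times (0.314 to 1.61). In the dendritic-like cells it was 0.591 times (0.0716 to 2.14) in library 1 and 1.58 times (0.430 to 4.04) in library 2. Erbb4 in these classes did not exceed, beyond counting error, what Pth RNA at the parathyroid ratio would bring. The counts are few and the intervals wide, and whether this Erbb4 came from these cells was not tested.

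**Figure D1:**
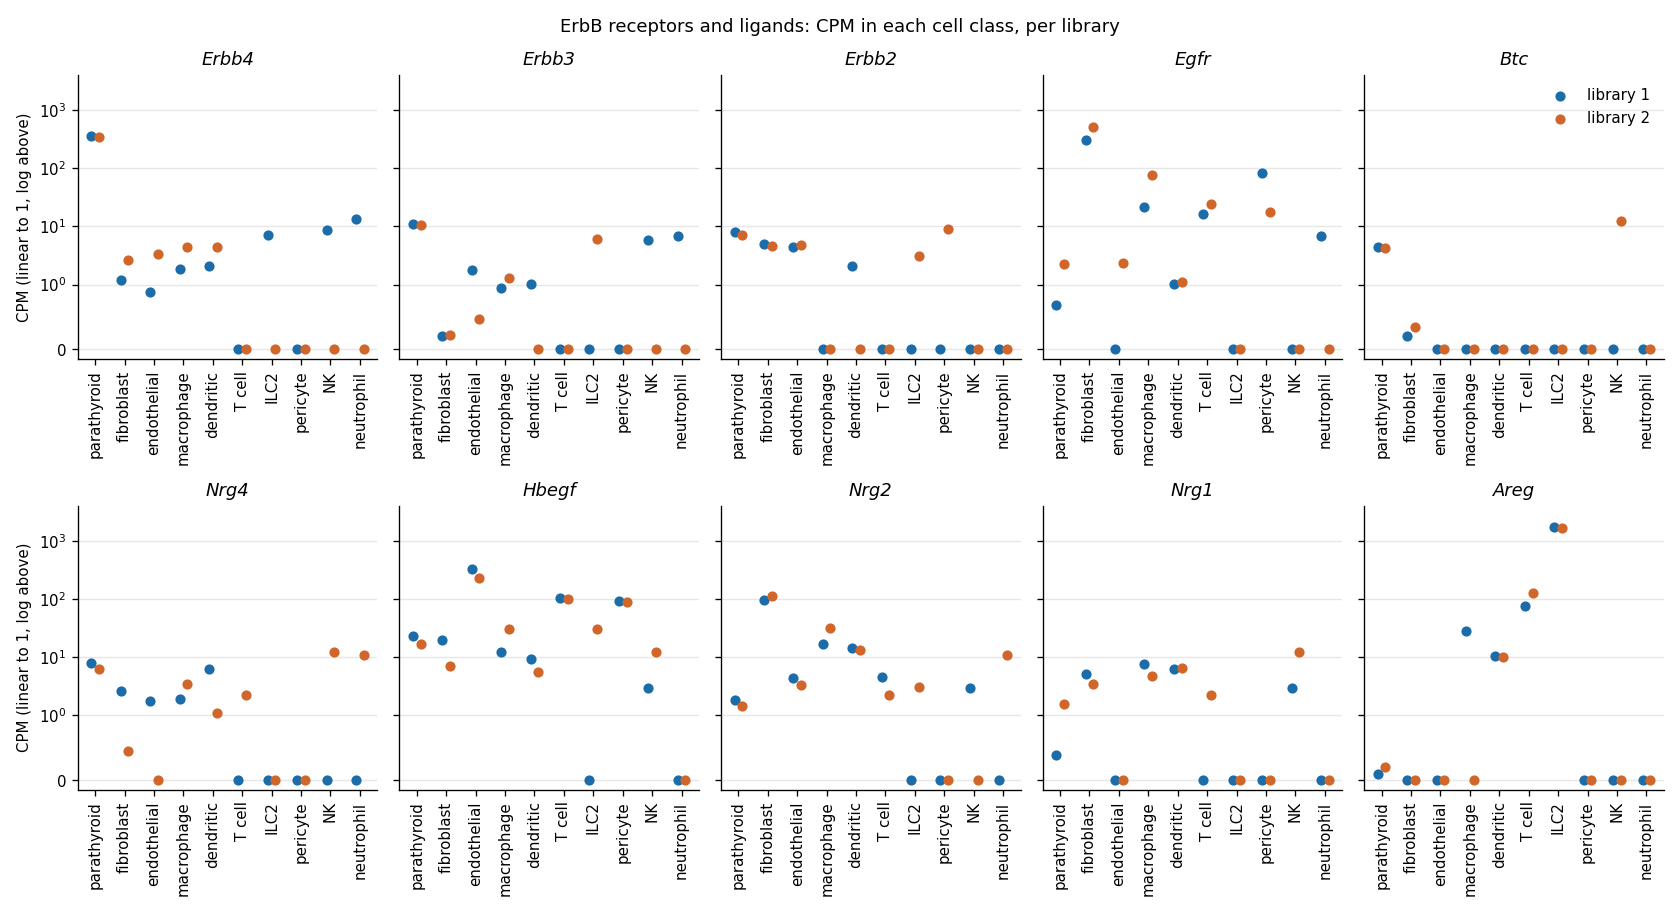
Level of each member in CPM (vertical axis, linear up to 1 and logarithmic above) in 10 cell classes. Each point is the sum of 1 class in 1 library, blue for library 1 and orange for library 2. Erbb4 stands at 360 and 338 CPM in the parathyroid class and below 14 in every other class shown, Egfr and Nrg2 are highest in the fibroblast-like class, Hbegf in the endothelial-like class and Areg in the ILC2-like class. The small classes on the right (ILC2, pericyte, NK, neutrophil) rest on few cells.

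Erbb4 varied between single parathyroid cells. An Erbb4 UMI was found in 621 of 662 cells of library 1 (93.8%, exact interval 91.7 to 95.5) and in 2117 of 2236 cells of library 2 (94.7%, 93.7 to 95.6). The median cell had 12 UMIs in library 1, with quartiles of 5 and 22, and 9 UMIs in library 2, with quartiles of 4 and 15. Thinned to 5000 UMIs per cell, leaving out 16 and 34 shallower cells, the shares were 70.9% and 70.1%. The variance of the thinned Erbb4 counts was 1.75 times their mean in library 1 and 1.79 times in library 2. In T-cell-like cells the unthinned share was 0 in both libraries at medians of 12010 and 8838 UMIs, and in fibroblast-like cells it was 2.61% and 3.57% at medians of 21694 and 19701.5. The 41 and 119 parathyroid cells with no Erbb4 UMI were shallower, with medians of 14249 and 22688 UMIs against 38479 and 30875 in the cells with one. Of them, 31.7% and 24.4% had fewer than 5000 UMIs, beside 0.483% and 0.236% of the cells with an Erbb4 UMI. Casr was detected in 70.7% and 72.3% of the cells with no Erbb4 UMI, against 99.4% and 98.8% of the rest.

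Erbb4 was at a similar level on either side of the limit of 5% Pth. Cells with 1 to 5% Pth, which were left out of both sides, had 400 CPM in library 1 (60 UMIs in 14 cells) and 294 CPM in library 2 (49 UMIs in 22 cells). Just inside the limit, cells with 5 to 7% Pth had 419 and 436 CPM, from 2 and 6 cells. Just outside the other limit, cells with 0.5 to 1% Pth had 1161 and 247 CPM, from 13 and 25 cells. Those with under 0.5%, 553 and 1029 cells, had 2.25 and 3.87 CPM. Most of the Erbb4 UMIs at 0.5 to 1% Pth came from a cluster of 6 and 13 cells that was left without a name. By its markers this cluster matched parathyroid cells best (score 3.52, 6 of 6 markers detected). It was left unnamed because it was shallow and had none of those markers among its leading genes. It carried the parathyroid markers other than Pth at 54444 and 9921 CPM, had medians of 5402 and 4468 UMIs and of 12.3% and 6.08% mitochondrial UMIs, and in library 2 held 5 cells with at least 20 UMIs of fibroblast markers. Erbb4 was at 1689 CPM (67 UMIs, 6 of 6 cells) in library 1 and 609 CPM (74 UMIs, 8 of 13 cells) in library 2. Its ratio of Erbb4 to Pth was 87.8 times (68.0 to 111) and 49.5 times (38.9 to 62.1) that of the parathyroid class. The part of depth, mitochondrial RNA and mixture in these levels was not tested.

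**Figure D2:**
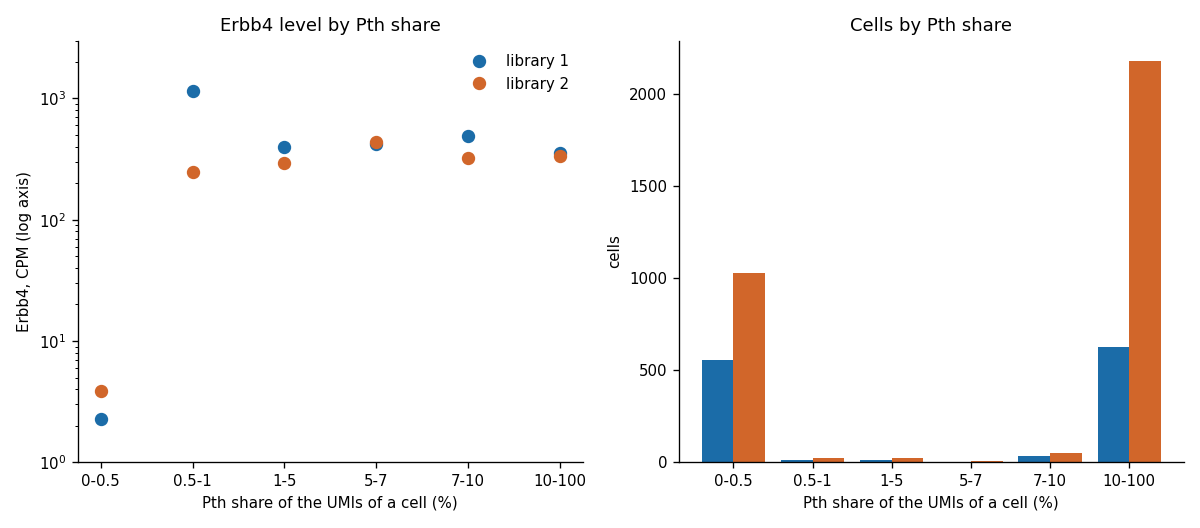
Left, Erbb4 in CPM (log axis) of cells grouped by the share of their UMIs that came from Pth. Right, the number of cells in each range. Blue is library 1 and orange library 2. Erbb4 stands at 2.25 and 3.87 CPM under 0.5% Pth and between 247 and 1161 CPM in every range above it, while few cells lie between 0.5 and 7%.

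The other receptors fell into 2 patterns. Erbb3, the neuregulin receptor with little kinase activity, was at 10.9 CPM in library 1 and 10.7 in library 2 in the parathyroid class (332 and 764 UMIs, mean 10.8 ± 0.141). The 5 other classes averaged 0.595 ± 0.275 CPM and held 5 and 6 UMIs in all, so the ratio of 18.1 rests on few counts. The parathyroid class held 96.5% and 98.6% of all Erbb3 UMIs. Erbb2, the partner receptor, was at 8.14 and 7.03 CPM in the parathyroid class (248 and 502 UMIs). It was also present at 5.05 and 4.65 CPM in fibroblast-like cells and at 4.41 and 4.71 in endothelial-like cells, below both parathyroid libraries, and was at 0 UMIs in macrophage-like and T-cell-like cells of both libraries. The fibroblast-like and endothelial-like levels of Erbb2 overlapped between libraries. In parathyroid cells an Erbb2 UMI was found in 28.7% and 19.5% of cells, and an Erbb3 UMI in 34.7% and 27.9%, at the respective medians of 37902 and 30579.5 UMIs. Cells with Erbb4 together with Erbb2 or Erbb3 UMIs made up 50.2% (46.3 to 54.0) of library 1 and 40.4% (38.4 to 42.5) of library 2. With or without Erbb4, 51.7% and 41.5% of parathyroid cells had an Erbb2 or Erbb3 UMI. As Erbb4 was found in nearly every cell, the joint share mostly reflects how often Erbb2 or Erbb3 was detected. These shares were not thinned.

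Egfr had the opposite pattern, with its highest level in fibroblast-like cells. There it was at 308 CPM in library 1 (1526 UMIs) and 504 CPM in library 2 (4437 UMIs), and 94.8% and 97.3% of the cells had a UMI. These cells held 95.9% and 92.1% of all Egfr UMIs. The parathyroid class was at 0.689 CPM (21 UMIs) and 2.30 CPM (164 UMIs), a mean of 1.49 ± 1.14 beside 95.5 ± 36.8 for the mean of the 5 other classes. In library 2, 31 parathyroid barcodes (1.39%) had at least 20 UMIs of fibroblast markers. They held 114 of its 164 Egfr UMIs, at a median doublet score of 0.314 beside 0.0976 in the rest. Library 1 had 0 such barcodes. Without them the parathyroid level of Egfr in library 2 was 0.710 CPM, beside 0.689 in library 1, and Erbb4 in the remaining cells was 340 CPM.

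Outside the fibroblasts, Egfr was found in part of the macrophage-like class. The cluster led by Retnla, F13a1 and Pf4 (9 and 42 cells), genes known from resident macrophages, had 185 CPM in library 1 (22 UMIs in 7 cells) and 200 CPM in library 2 (136 UMIs in 26 cells). The macrophage-like cluster led by Il1a and Mmp12 had 0 and 6.41 CPM, and the one led by Lyz1 and Lyz2 had 2.65 and 60.5 CPM, the last with all 32 UMIs in 1 barcode. In the Retnla cluster fibroblast markers stood at 50.5 CPM (6 UMIs) in library 1 and 802 CPM in library 2. Its ratio of Egfr to these markers was 291 times that of the fibroblast-like class in library 1 (182 to 441) and 13.7 times in library 2 (11.5 to 16.2). T-cell-like cells had 16.2 and 24.2 CPM of Egfr (7 and 11 UMIs), and pericyte-like cells 82.8 and 17.7 CPM (11 and 4 UMIs in 10 and 22 cells). Pericyte-like and macrophage-like levels overlapped between libraries, and each stood below both fibroblast libraries.

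Among the 6 large classes, the ligands Btc and Nrg4 had their highest mean level in the parathyroid class. Btc, a ligand of both Egfr and Erbb4, was at 4.49 CPM in library 1 (137 UMIs) and 4.30 CPM in library 2 (307 UMIs). The fibroblast-like class had 1 and 3 UMIs, and the other 4 large classes had 0 in both libraries. One UMI among 7 NK-like cells of library 2 gave 12.4 CPM there, which is no level to compare. The parathyroid class held 99.3% and 98.4% of all Btc UMIs. Nrg4, a neuregulin that acts through Erbb4, was at 7.81 and 6.33 CPM in the parathyroid class (238 and 452 UMIs, 90.5% and 96.6% of its UMIs). Its mean of 7.07 ± 1.05 CPM stood beside 1.98 ± 0.748 for the mean of the others. The dendritic-like class had 6.26 and 1.10 CPM from 6 and 1 UMIs, and the higher of these values lies next to the parathyroid level of library 2. Single UMIs gave 12.4 CPM in NK-like and 10.7 CPM in neutrophil-like cells of library 2, above the parathyroid level there, and are no levels to compare.

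Hbegf, the heparin-binding EGF-like ligand, was highest in endothelial-like cells. They had 328 CPM in library 1 (372 UMIs) and 232 CPM in library 2 (492 UMIs), and 47.0% and 47.6% of their cells had a UMI after thinning. The T-cell-like class followed with 102 and 101 CPM, and pericyte-like cells with 90.3 and 88.5 CPM. Parathyroid cells were at 23.4 and 16.7 CPM, which overlapped the macrophage-like class at 12.2 and 29.99. Because the parathyroid class was the largest, it still held 56.4% and 62.7% of all Hbegf UMIs, against 29.4% and 25.9% in endothelial-like cells. After thinning, 11.1% and 7.27% of parathyroid cells had an Hbegf UMI. The 3 endothelial-like clusters ranged from 241 ± 35.7 to 351 ± 147 CPM. These SDs include the difference between the libraries, and whether the clusters differ within a library was not tested. The Retnla macrophage cluster had 67.3 and 69.2 CPM, against 0 and 7.32 in the Il1a cluster.

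Nrg2, a neuregulin, followed the fibroblasts as Egfr did. Fibroblast-like cells had 97.2 CPM in library 1 (481 UMIs) and 112 CPM in library 2 (984 UMIs), or 83.1% and 82.8% of its UMIs. Of the 5 fibroblast-like clusters, the one led by A2m, Sntg1 and Wt1 had the highest mean, 163 ± 37.4 CPM (189 and 136), and the one led by Pappa2 had 60.6 ± 12.8. Egfr was at 423 ± 200 and 470 ± 220 CPM in these clusters. These SDs include the difference between the libraries, so they do not show whether the clusters differ within a library, which was not tested. Nrg2 was also at 118 and 69.2 CPM in the Retnla macrophage cluster (14 and 47 UMIs) and at 14.6 and 13.2 CPM in dendritic-like cells. The parathyroid class had 1.80 and 1.43 CPM, and 1.08 CPM in library 2 without the barcodes with fibroblast RNA.

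**Figure D3:**
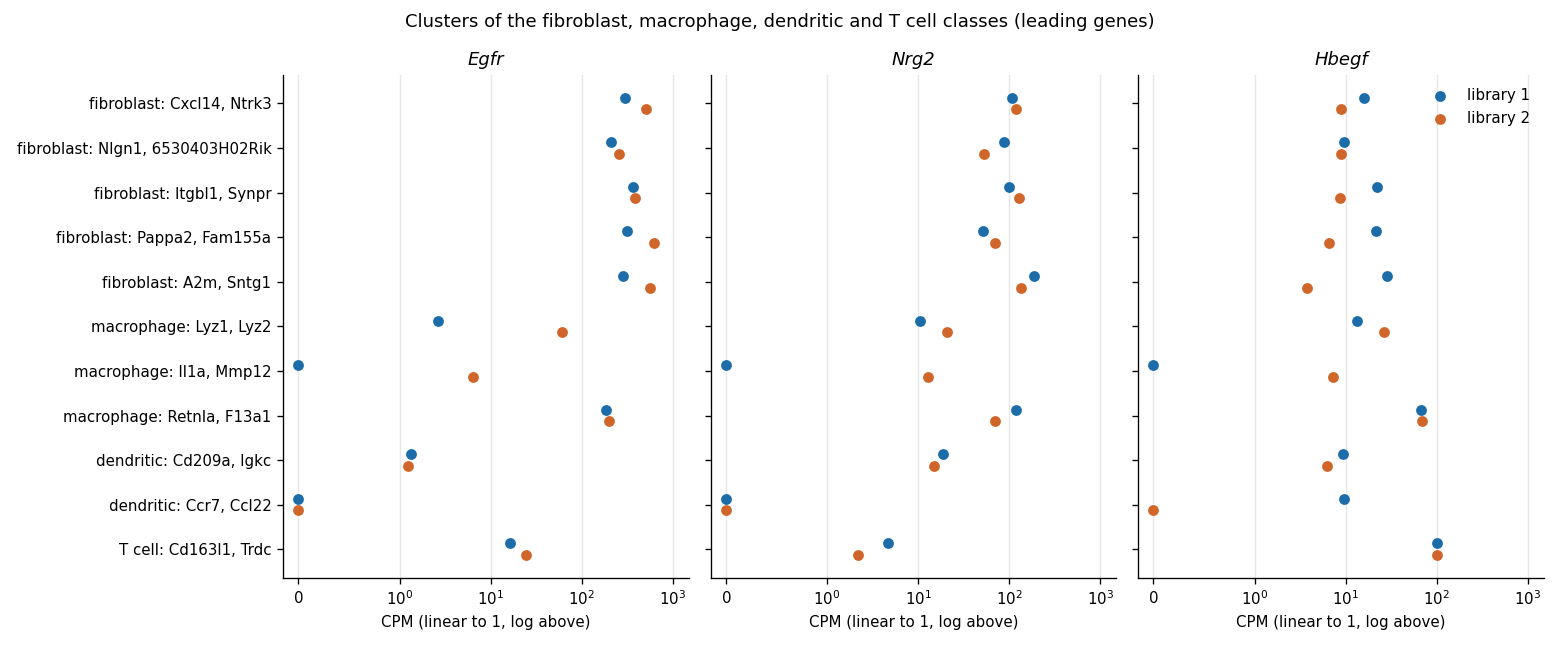
Levels of Egfr, Nrg2 and Hbegf in CPM (horizontal axes, linear up to 1 and logarithmic above) in clusters of the fibroblast, macrophage, dendritic and T-cell classes, each labelled with 2 leading genes. Blue points are library 1 and orange points library 2. The macrophage cluster led by Retnla and F13a1 has 185 and 200 CPM of Egfr and 118 and 69.2 CPM of Nrg2, whereas the Il1a cluster has 0 and 6.41 CPM of Egfr.

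Areg, a ligand of Egfr, was found mainly in ILC2-like and T-cell-like cells. The ILC2-like cluster (13 and 35 cells) had 1709 CPM in library 1 (237 UMIs, 13 of 13 cells) and 1659 CPM in library 2 (544 UMIs, 28 of 35 cells). Areg was the gene of largest fold in this cluster, although it was neither a marker used to name it nor among the genes used to cluster. With predicted doublets kept, the cluster led by Areg (14 and 35 cells) scored 4.79 on mast-cell and 3.8 on ILC2 markers. At Leiden resolution 2 the name stayed ILC2. Endothelial markers stood at 216 CPM in the ILC2-like cells of library 1 and 2147 CPM in those of library 2. T-cell-like cells had 76.3 and 128 CPM, from 3 and 8 cells, and dendritic-like cells 10.4 and 9.92 CPM. The macrophage-like class had 30 UMIs in library 1, of which 26 were in 1 barcode, and 0 in library 2. Fibroblast-like and endothelial-like cells had 0 UMIs in both libraries, which allows up to 0.606 and 0.341 CPM in the former and up to 2.64 and 1.41 in the latter. The parathyroid class had 3 and 14 UMIs, 10 of the latter in 1 barcode.

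Nrg1 was low in every class. Dendritic-like cells had 6.26 and 6.61 CPM (6 UMIs in each library), macrophage-like cells 7.52 and 4.78, and fibroblast-like cells 5.05 and 3.52. The macrophage-like range overlapped both of the others, whereas the dendritic-like libraries stood above the fibroblast-like ones. A Nrg1 UMI was found in only 2.96 ± 1.25% of dendritic-like cells, beside 5.49 ± 1.45% of fibroblast-like cells. The dendritic-like level thus rests on very few cells, and this order is not one to rely on. The macrophage-like cluster led by Lyz1 reached 15.9 and 17.0 CPM from 6 and 9 UMIs. In the parathyroid class Nrg1 was at 0.394 CPM (12 UMIs) and 1.60 CPM (114 UMIs). In library 2, 61 of the 114 UMIs were in 1 barcode, and the level without it was 0.742 CPM. Nrg1 spans 1069479 bases and Erbb4 1075874, and no source used here states whether reads from introns were counted, so that levels of different genes are not ranked against each other.

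The 5 ligands of the family outside the set completed the picture. Egf was at 53.5 and 46.9 CPM in the parathyroid class (1631 and 3350 UMIs), against a mean of 2.36 ± 0.825 CPM in the 5 other classes. Tgfa was at 10.5 and 9.29 CPM there, against 1.20 ± 0.533. Both were higher in the parathyroid class by edgeR's quasi-likelihood test, with log2 differences of 5.07 ± 0.276 (SE) for Egf and 5.68 ± 0.618 for Tgfa, and both stood above the mean of the other classes in 2 of 2 libraries. Tgfa had 0 UMIs in 2 of the 5 other classes, so that its fitted difference depends on the prior count. With all other cells as 1 class the differences were 4.47 for Egf and 3.04 for Tgfa. Ereg had 3 UMIs in neutrophil-like cells of library 1 and 0 in the large classes of both libraries, while Epgn had 11 and Nrg3 35 UMIs over these classes. Epgn, Ereg, Areg and Btc lie in this order on chromosome 5 between chr5:91027464 and 91402994. In this stretch Btc was found in parathyroid cells and Areg in ILC2-like and T-cell-like cells. Cells with Erbb4 and at least 1 UMI of Egf, Tgfa, Btc, Nrg4 or Hbegf made up 87.0% (84.2 to 89.5) of parathyroid cells in library 1 and 81.6% (79.9 to 83.2) in library 2. These shares were not thinned, and Erbb4 was found in nearly every parathyroid cell.

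Genes with patterns most like that of Erbb4 were sought over the 12 sums of 6 classes and 2 libraries, by Pearson's r of log2(CPM + 1), among 5428 genes with at least 20 CPM in the parathyroid class of both libraries. The points share libraries and class depths, and the values are a description. The 8 highest were Dnah9, an axonemal dynein heavy chain (r = 0.99), Cldn8, a tight junction protein (0.99), Atp10b, a phospholipid flippase (0.98), Lrrc7 (0.98), Rhcg, an ammonia transporter (0.98), Cox6a2, a subunit of cytochrome c oxidase (0.97), Syne4, a nuclear envelope protein (0.97), and Aldh1a3, which makes retinoic acid (0.97). Rhcg was at 304 ± 33.6 CPM in the parathyroid class and 6.50 in the mean of the others, and Cldn8 at 44.2 ± 0.580 and 0.461. Among the members, r with Erbb4 was 0.95 for Btc, 0.92 for Erbb3, 0.62 for Nrg4, 0.56 for Erbb2, -0.36 for Egfr and -0.39 for Nrg2. A high r can come from restriction to the parathyroid class alone. Btc stood at 4.49 and 4.30 CPM there, below the 20 CPM asked of other genes, with 0 UMIs in 4 other classes. The genes most like Erbb3 were S100a1, Aldh1a3 and Bex1 (0.95 each), and those most like Btc were Perp, Dmrtc1a and Efcab1 (1.00, 1.00 and 0.99). Erbb2 was most like Acaa1a, Ptdss2 and Arl1 (0.98, 0.96 and 0.96), and Nrg4 had only weaker matches in Ppp2r3c, Chchd5 and Dcxr (0.88, 0.86 and 0.81). For Egfr they were Chd9, Cacna1a and Matn2 (0.95, 0.93 and 0.93), for Nrg2 Cd302, Tpst1 and Mmp19 (0.96 each), and for Hbegf Sh3bgrl2, Vgll4 and She (0.97, 0.97 and 0.96). Nrg1 and Areg had too few UMIs in the classes compared.

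Within the parathyroid class, Erbb4 fell as the share of Pth rose. Cells of each library were cut into tertiles by Pth share, with Pth removed from the counts, and the highest tertile was tested against the lowest. Erbb4 was at 516, 399 and 341 CPM from the lowest to the highest tertile of library 1, and at 460, 403 and 336 CPM in library 2. The highest tertiles of both libraries stood below both lowest tertiles. The log2 difference was -0.43 ± 0.0447 (SE, edgeR's quasi-likelihood test, adjusted p = 6.57e-05 over 14583 genes), with the same direction in 2 of 2 libraries. The share of cells with an Erbb4 UMI was 95.02%, 97.7% and 88.6% in library 1 and 95.2%, 96.9% and 91.9% in library 2. Median Pth shares ran from 11.6% to 16.9% in library 1 and from 13.2% to 18.6% in library 2. Median depth was 37610 and 36754.5 UMIs in the lowest and highest tertiles of library 1 and 31012.5 and 30285 in library 2, and mitochondrial shares were 3.48% and 3.50%, and 3.27% and 3.31%. Their part in the result was not tested. In a fit without library as a block, Erbb4 was not called (adjusted p = 0.346, beside at most 1.90e-04 in the other alternatives), nor was any of the 14583 genes, of which 1900 had an unadjusted p under 0.05.

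Of the 10 members 9 passed the filter on low counts in this comparison, Areg being left out. The test called 3 of them lower and 0 higher (also 0 at an unadjusted p under 0.05, and 0 by DESeq2, which gave an adjusted p for Erbb4 alone), beside 12.7% of all genes called lower and 13.4% called higher. The median log2 difference of the 9 was -0.03, beside -0.02 over all genes. The other 2 called members rested on few barcodes of library 2. Egfr was at 6.60, 0.694 and 0.581 CPM from the lowest to the highest tertile of library 2, but at 0.592, 0.806 and 1.03 CPM in library 1. Its log2 difference of -2.26 ± 0.729 (edgeR adjusted p = 0.0421) became -1.09 ± 0.626 (adjusted p = 0.24) without the 31 barcodes with fibroblast RNA, of which 18 lay in the lowest tertile. Nrg1, at 4.04, 0.794 and 0.687 CPM in library 2, had a log2 difference of -1.96 ± 0.613 (edgeR adjusted p = 0.0374). Without the 1 barcode with 61 of its UMIs it was -0.45 ± 0.518 (adjusted p = 0.592). Erbb4 kept its value in both of these fits, at -0.44 and -0.43.

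The remaining members were not called across the tertiles. Erbb3 differed by 0.07 ± 0.112 on the log2 scale, Erbb2 by -0.03 ± 0.135 and Hbegf by 0.03 ± 0.0865. Among the other ligands, Btc differed by 0.10 ± 0.21, Nrg4 by -0.18 ± 0.162 and Nrg2 by 0.01 ± 0.358. The ligands outside the set, Egf (0.05 ± 0.0708) and Tgfa (-0.11 ± 0.123), were not called either. The standard errors, derived from the test statistic, are a rough measure of how wide a difference these counts leave possible. The widest was that of Nrg2, with 55 and 102 UMIs.

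**Figure D4:**
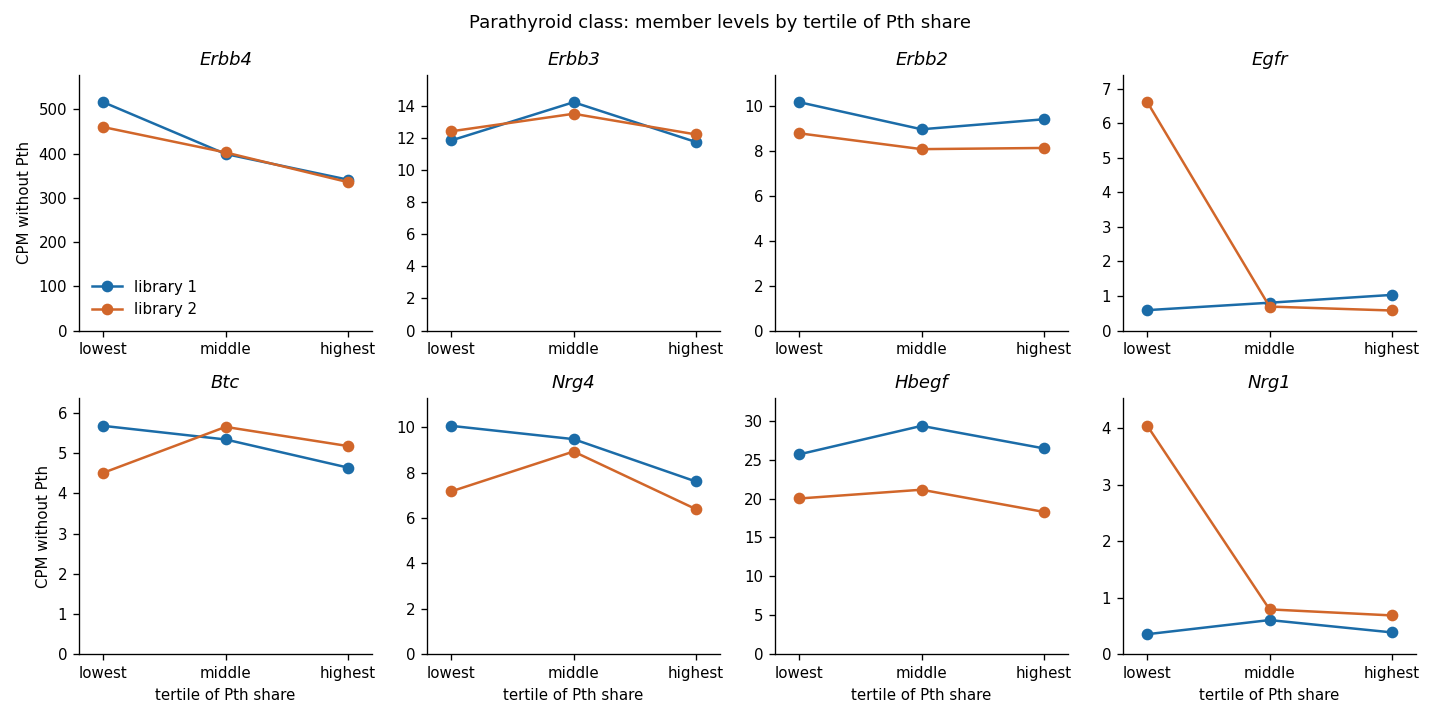
Levels of 8 members in the parathyroid class, in CPM without Pth (vertical axes from 0, a scale for each gene), in the lowest, middle and highest tertile of cells by Pth share. Blue lines are library 1 and orange lines library 2. Erbb4 goes from 516 to 341 CPM and from 460 to 336 CPM, whereas the drops of Egfr and Nrg1 appear in library 2 alone.

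The genes through which ErbB receptors act were present in the parathyroid class with no common direction. The list held 72 pathway genes outside the set in 9 roles, of which 68 passed the filter. The class was compared by edgeR's quasi-likelihood test with the 5 other classes, whose logs were averaged with equal weight, and 23 were higher, 20 lower and 25 not called. Over all 13284 genes tested, 36.9% were called higher and 20.0% lower. The median log2 difference of the list was 0.05, beside 0.19 over all genes. The fit averages logs and scales the sums by edgeR's normalisation (TMM), which the CPM given here do not include. For 8 of the 23 with a higher call the mean CPM lay below that of the other classes. With DESeq2's size factors 18 were higher and 24 lower, and by DESeq2's own test 17 and 26, while over all genes the calls moved from 4902 higher and 2660 lower to 4291 and 3099, and to 4138 and 4372.

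Of the 6 genes of ligand release, 2 were higher, 3 lower and 1 not called. Adam17, the main sheddase of several EGF-type ligands, was at 15.8 ± 0.345 CPM in the parathyroid class and 77.4 ± 12.2 in the mean of the others, a log2 difference of -2.02 ± 0.2. Adam10 (-1.18 ± 0.157) and the protease Furin (-1.31 ± 0.157) were also lower. Bace1, a protease that cuts neuregulins, was higher, at 19.4 ± 0.387 against 11.4 ± 0.542 CPM (1.85 ± 0.253). Rhbdf1 was called higher (3.28 ± 0.88), with a lower mean of 5.30 against 6.69 CPM. With all other cells summed as 1 class, Bace1 and Rhbdf1 had log2 differences of -0.08 and -1.24. Among genes of the gamma-secretase complex, which cuts Erbb4 within the membrane, Psen2 was lower (-0.73 ± 0.241) and Psenen higher (0.42 ± 0.128). The call of Psen2 was lost with all other cells as 1 class, and that of Psenen with DESeq2's size factors.

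Of 10 adaptor genes tested, 3 were higher, 2 lower and 5 not called. The adaptor Grb2 was at 57.2 ± 3.09 CPM against 187 ± 29.7 (log2 difference -1.23 ± 0.167), and the docking protein Gab2 was lower as well (-1.07 ± 0.197). Sos2, an exchange factor of Ras, was higher at 86.4 ± 8.88 against 49.4 ± 3.74 CPM (1.03 ± 0.13). The phosphatase Ptpn11 (0.46 ± 0.137) and Gab1 (2.39 ± 0.644) were also called higher, the latter with 22.5 against 25.5 mean CPM and -0.40 when all other cells were 1 class. The call of Ptpn11 was lost with DESeq2's size factors, by DESeq2's own test, with no library block and with all other cells as 1 class, and that of Gab1 also with predicted doublets kept. Grb7, which docks on ErbB receptors and did not pass the filter, had 5.96 ± 0.625 CPM in the parathyroid class and 0.0881 ± 0.125 in the others.

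The Ras and ERK kinases gave 4 higher, 2 lower and 4 not called of 10. Map2k2, the kinase above ERK, was at 130 ± 0.766 against 85.9 ± 2.22 CPM (0.74 ± 0.116), and Araf (0.98 ± 0.164) and Hras (0.49 ± 0.16) were called higher, Hras with 48.1 against 48.2 mean CPM. The call of Hras was lost with DESeq2's size factors, by DESeq2's own test and with no library block. Nras (-1.09 ± 0.145) and Mapk3, which encodes ERK1 (-0.56 ± 0.159), were lower, the call of Mapk3 being lost with no filter on low counts. Of the 11 PI3K, PLC and STAT genes 6 were lower, 1 higher and 4 not called. Pik3r1, a regulatory subunit of PI3K, stood at 27.8 ± 3.00 against 289 ± 3.68 CPM (-2.99 ± 0.18). Stat5a, a transcription factor known to bind Erbb4, was at 5.29 ± 2.49 against 35.0 ± 14.9 CPM (-2.05 ± 0.21), and Stat5b was lower too (-1.10 ± 0.157). The kinase Src was higher (1.63 ± 0.266).

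Of the 10 inhibitors and turnover genes 3 were higher, 3 lower and 4 not called. The ubiquitin ligases Cbl (-1.18 ± 0.141) and Cblb (-1.44 ± 0.207) and the ErbB inhibitor Errfi1, at 49.5 ± 6.34 against 201 ± 8.42 CPM (-1.12 ± 0.188), were lower. Wwp1, a ubiquitin ligase of Erbb4, was higher (0.79 ± 0.191). Lrig1 (1.79 ± 0.332) and Nedd4 (0.86 ± 0.27) were called higher with lower mean CPM, and with all other cells as 1 class they were at -1.23 and -1.17. Nedd4 was not called by DESeq2's own test either. Of the 10 ERK feedback and target genes 4 were higher, 1 lower and 5 not called. The ETS factor Etv4 was at 9.15 ± 2.00 against 0.693 ± 0.246 CPM (4.99 ± 0.577), and Etv5 at 21.0 ± 1.45 against 16.4 ± 0.209 (1.09 ± 0.275). The ERK phosphatase Dusp6 was called higher (0.83 ± 0.207) with 46.1 against 58.7 mean CPM, a call lost by DESeq2's own test, while Dusp5 was lower at 14.9 ± 2.08 against 185 ± 61.2 (-2.30 ± 0.21). Several of these genes are known to respond within the time of a tissue digestion. The 17 immediate early genes summed to 8316 and 7444 CPM in parathyroid cells and to 20057 and 21199 CPM in fibroblast-like cells. In endothelial-like cells they summed to 22830 and 20148 CPM, and in T-cell-like cells to 9962 and 9357 CPM. Their part in these differences, and in the order of the classes for Hbegf, was not tested.

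The 4 partners of the nuclear Erbb4 fragment gave 3 higher and 1 lower. Wwox, which binds ErbB4 and holds it in the cytoplasm, was at 382 ± 97.9 CPM in the parathyroid class and 147 ± 27.5 in the mean of the others (log2 difference 1.68 ± 0.127). The corepressor Ncor1 was at 443 ± 19.7 against 355 ± 55.8 CPM (0.72 ± 0.118). Yap1 was called higher (3.57 ± 0.495) at a mean of 41.4 against 42.0 CPM, and was at -0.72 with all other cells as 1 class. Tab2, which links the fragment to Ncor1, was lower at 69.2 ± 8.17 against 128 ± 11.4 CPM (-0.71 ± 0.144). Adjusted p-values of the 38 genes that the rule for named genes took as higher or lower ranged from 1.63e-08 to 0.0204 by edgeR with Benjamini-Hochberg adjustment over all genes tested. Of the 38, the 6 whose sign changed in any setting tried were Bace1, Rhbdf1, Gab1, Lrig1, Nedd4 and Yap1, each with all other cells as 1 class. Of the 38 genes 36 had the same direction of CPM in both libraries, which need not be the direction of the call. For 7 of the 38, all called higher, the mean CPM lay below that of the other classes. Rhbdf1 had 0 UMIs in 2 of the other classes, and Gab1, Etv4 and Yap1 in 1, so that their fitted differences depend on the prior count. The libraries are separate pools of mice and enter the fit as a block. A p-value here sets a class difference against the spread left after class and library, taken over all 6 classes. It does not measure the spread between single mice, and only 2 pools stand behind it.

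**Figure D5:**
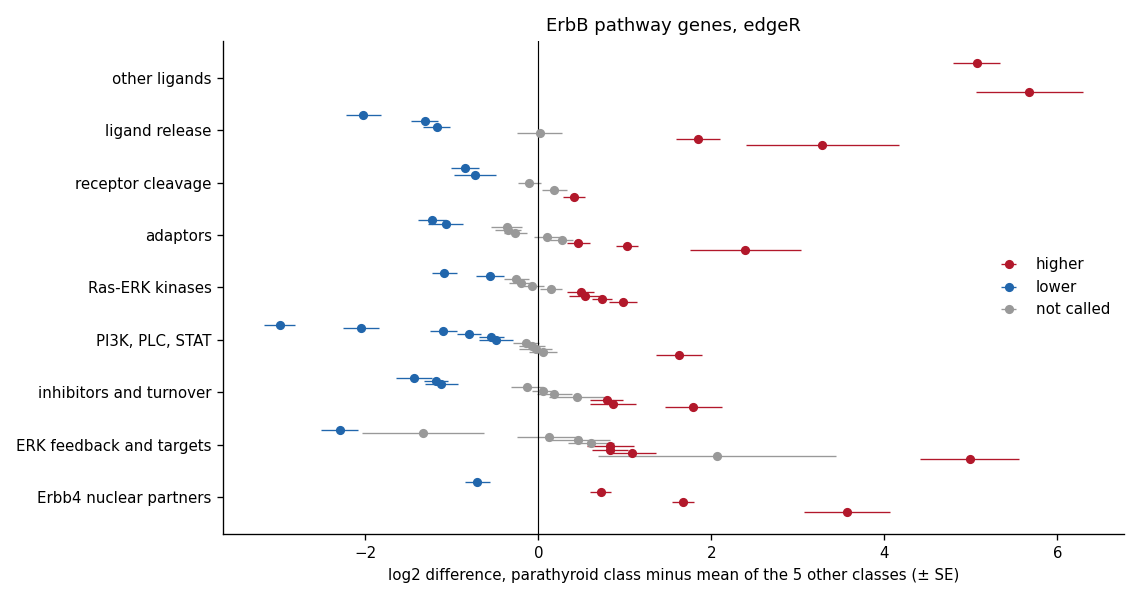
Log2 difference of 68 ErbB pathway genes (horizontal axis, parathyroid class minus the mean of the 5 other classes, from edgeR) by role. Points are genes, bars are standard errors, and red, blue and grey mark genes called higher, called lower and not called. The roles show no common direction: the PI3K, PLC and STAT genes have 6 lower of 11, and Egf and Tgfa lie at 5.07 and 5.68, the latter with 0 UMIs in 2 of the other classes.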

How the data were processed

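Single-cell RNA was counted in 2 libraries of pooled glands. The authors deposited unnormalised UMI counts for each barcode. Per the file headers and the submitters' processing notes they came from Cell Ranger 7.0.0 with mm10 as genome build. The calling of barcodes and the handling of introns are not stated. The files held 1406 and 3518 barcodes with 41517620 and 88283761 UMIs.

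Filters removed barcodes under 500 genes, from 15% mitochondrial or 5% haemoglobin UMIs on, or with a Scrublet doublet call (24 and 7, at score limits of 0.193 and 0.474), 164 and 206 in all. The share of doublets called in library 2, 0.199%, was low, and a score limit of 0.25 was added after the data were seen, as were the fits without barcodes rich in fibroblast or Nrg1 UMIs. Cells under 1% Pth were clustered with scanpy 1.11.5 and igraph 0.11.9 (2000 variable genes, 30 components, 15 neighbours, Leiden resolution 1, members and gene lists kept out). The 20 clusters were named by the highest mean log2 ratio of a cell type's markers, with a score of at least 0.5 and 3 markers detected. A cluster far shallower than its library, with none of those markers among its leading genes, was left unnamed. No cluster of cells under 1% Pth could join the parathyroid class.

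Counts were summed per library over 6 classes of 20 or more cells per library (12 sums), and for tertiles of Pth share. edgeR 4.0.16 (TMM, filterByExpr, quasi-likelihood test, Benjamini-Hochberg) was fitted on all genes with library as a block, since all classes in it share mice, with 5 residual degrees of freedom for classes and 2 for tertiles. A gene was called at adjusted p under 0.05. The quasi-likelihood test gives no standard error. The edgeR values marked SE were derived as the size of the log2 difference divided by the square root of the test's F. DESeq2 1.42.0 was an alternative. Of the members 9 passed the filter in the class fit, without Btc. Where a class has 0 UMIs a fitted difference depends on the prior count, so member levels are given as CPM. In counts simulated for the 13284 genes of the class fit, 81% of genes changed by a log2 of 1 were recovered, and for the 14583 of the tertiles 86%, with 8 and 4 false calls. Each gene was drawn with the same mean level in all sums, 1 common spread and no library effect, and 200 genes were changed. The real fits called far more genes (4902 higher and 2660 lower for classes), so these rates may not hold for them. Pathway genes named were up to 3 called genes of smallest p each way per role, with the 5 other ligands, of which 1 gene is not reported here, and genes like a member were the 8 of largest r for Erbb4 and 3 for the others with at least 50 UMIs in each library of the highest class. Gene positions come from GENCODE on GRCm38, matched by gene ID. The members, lists, markers and tests were chosen with earlier results of these data known.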

Additional observations from a re-analysis of the deposited data

How the results depend on the processing

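Of the 23 pathway genes called higher and 20 called lower, the counts stayed within 1.5 times under the other settings tried (17 to 25 higher and 18 to 26 lower), except that 33 were called lower and 16 higher when all other cells were summed as 1 class. Of the 38 named, 26 kept their call in each tested setting. Across the alternatives the tertile fits gave edgeR or DESeq2 adjusted p-values of 3.18e-33 to 0.346 for Erbb4, 1.93e-06 to 0.398 for Egfr and 4.72e-04 to 0.592 for Nrg1. The 3 members called lower across tertiles of Pth share became 1 by DESeq2's Wald test, where Erbb4 alone had an adjusted p, and 0 with no replicate block (library not a term). Erbb4 was called lower in each other tested setting. The mean share of parathyroid cells with an Erbb4 UMI, 94.2%, became 70.5% when each cell was thinned to 5000 UMIs; without replicate 1 or 2 it was 94.7% and 93.8%. Leaving out a library leaves no residual degrees of freedom and gives values with no test, with Erbb4 between -0.52 and -0.35 across tertiles. Fitted differences between the parathyroid class and the others kept their sign in the settings tried for each member fitted but Nrg1, which was positive in 3 of 14 and lay between -1.73 and 0.55. Areg in the class fit had a derived standard error of 91.6 at a log2 difference of -2.53, which is not a usable measure of its spread. The 2 pools of mice and the few UMIs of Nrg1, Btc and Nrg4 limit what can be seen.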
